A study of Mus musculus with 18 samples.

Results

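The hormone genes of enteroendocrine cells were followed in the small intestine of irradiated mice. The 10 genes Chga, Chgb, Sct, Cck, Gcg, Gip, Nts, Pyy, Tph1 and Sst were taken by symbol from a table of 21928 gene symbols. RNA was sequenced from 18 wild type C57BL/6 mice, 3 in each of 6 groups. Male mice were controls without irradiation, were exposed to total abdominal irradiation (TAI) of 12 Gy, or received simvastatin by mouth after the same TAI. Female mice were controls without irradiation, were exposed to TAI, or received a high-fat diet (HFD) once TAI had been given. Tissue was taken at day 21 after irradiation. No group received simvastatin or HFD without irradiation, and neither treatment was sequenced in both sexes, so an effect of diet or of simvastatin without irradiation was not measured. HFD against control holds both irradiation and diet, and TAI against control and HFD against TAI take them one after the other. The age of the animals and the segment of the small intestine are not given in the sources used here. Y-linked genes matched the labelled sex in all 18 libraries.

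Enteroendocrine cells are scattered single cells of the intestinal epithelium that sense the gut contents and release peptide hormones or serotonin from dense secretory granules. They arise from crypt stem cells through the transcription factors Neurog3 and Neurod1. In the mouse, Gip, Cck and Sct are made mostly in the upper small intestine, and Gcg, Pyy and Nts more toward its lower end. In whole tissue, fewer cells of a type and less RNA per cell cannot be told apart.

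The sequence before the start of transcription is shown for Sct, Gcg, Gip and Cck, 4 of the 5 peptide hormone genes that passed the test in at least 1 comparison, and a shorter stretch of the fifth, Sst, follows them. Each line gives the 120 bases before the RefSeq start on the gene strand, 5′ to 3′. Capitals mark the E-box letters CANNTG bound by basic helix-loop-helix factors such as Neurod1, the cAMP response element TGACGTCA, and the letters TATAAA. The windows are chr7:141279134-141279253 (Sct), chr2:62483654-62483773 (Gcg) and chr9:121495695-121495814 (Cck) on the minus strand and chr11:96024425-96024544 (Gip) on the plus strand of GRCm38.p6.
Sct: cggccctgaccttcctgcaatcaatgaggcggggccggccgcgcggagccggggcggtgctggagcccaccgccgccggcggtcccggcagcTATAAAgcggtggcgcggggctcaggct
Gcg: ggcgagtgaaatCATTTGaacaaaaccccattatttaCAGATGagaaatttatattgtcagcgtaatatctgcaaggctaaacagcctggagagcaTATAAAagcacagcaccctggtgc
Gip: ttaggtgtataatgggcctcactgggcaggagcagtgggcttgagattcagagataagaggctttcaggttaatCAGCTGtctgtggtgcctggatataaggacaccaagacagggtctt
Cck: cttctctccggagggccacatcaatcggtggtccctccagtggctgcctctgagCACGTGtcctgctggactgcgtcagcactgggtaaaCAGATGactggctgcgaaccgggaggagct

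The cAMP response element was found in 2 of the 10 genes, and 30 bases around it are shown for both, from chr2:132781559-132781588 on the plus strand (Chgb) and chr16:23890874-23890903 on the minus strand (Sst). Both stretches lie before the RefSeq start but inside the gene positions given below, which come from another annotation, GENCODE.
Chgb: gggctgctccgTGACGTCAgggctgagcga
Sst: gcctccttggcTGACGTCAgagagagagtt

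All 10 genes were matched in the RefSeq promoter table, and letters were searched in the 250 bases before each start. The 10 genes have 12 such windows, and a gene counts when any of its windows holds the letters. The shares of promoters count windows. The full element TGACGTCA stood in 1.55% of 32851 promoters, and its shorter form TGACG, part of the full element, stood in 17.8% of promoters and in 6 of the 10 genes. CANNTG on both strands was in 66.2% of promoters, in 9 of the 10 genes and in 10 of their 12 windows. Its form CATCTG was in 14.4% of promoters and in Sct, Cck and Gcg. TATAAA on the gene strand was in 7.59% of promoters and in Sct and Gcg. These matches describe letters and were not tested as binding sites.

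Expression was measured as FPKM, fragments scaled to transcript length and library size, summed over the transcripts of a gene. Steps in the low values gave about 17.6 M to 26.5 M fragments per library. Estimated in this way, the genes rested on 4.0 to 74.3 fragments per library for Pyy, 16.6 to 139 for Gcg and 290.0 to 973 for Chgb. All 10 genes reached at least 1 FPKM in at least 3 libraries and were tested, together with 11767 genes in all. The epithelial genes Epcam, Krt8, Krt18, Krt20, Cdh1, Vil1 and Cldn7 summed to between 3696 and 4634 FPKM, and 4 to 6 of 9 markers of the exocrine pancreas were at 0 in every group, with a sum of at most 2.65 FPKM. Gastric markers summed to at most 0.192 FPKM. Female TAI replicate 3 stood apart in markers of the lower small intestine. Fabp6, the ileal bile acid binding protein, was at 15.6 FPKM in it and at most 1.39 FPKM in every other library, and Fgf15, an ileal hormone induced by bile acids, was at 1.84 FPKM in it and at most 0.206 FPKM elsewhere. The highest other Fabp6 value was that of an HFD library. Changes without female TAI replicate 3 are given for some of the 10 genes, in comparisons of female TAI with controls or HFD. Apart from counts over other settings or with 1 library left out, other results that use this library are given with it only. Its part in the hormone gene levels was not tested.

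The highest levels among the 10 genes were those of Gip, Sct, Nts and Sst, and the lowest those of Tph1 and Pyy. Gip, the incretin of K cells that raises insulin release, made up 29.3% ± 5.17 (SD, n = 3) of the summed FPKM of the 7 peptide hormones in female controls. This share was 31.0% ± 5.46 in female TAI mice and 30.6% ± 1.98 in female mice fed HFD. In male mice it was 31.0% ± 1.22 in controls, 35.8% ± 1.74 after TAI and 37.6% ± 1.197 after TAI with simvastatin. The sum of all 10 genes lay between 64.1 and 71.9 FPKM in female controls, 78.8 and 122 FPKM in female TAI mice and 139 and 169 FPKM in female mice fed HFD. All HFD libraries thus lay above all other female libraries. In male mice the sum lay between 59.0 and 118 FPKM in controls, 90.2 and 105 FPKM after TAI and 88.3 and 99.8 FPKM with simvastatin, and the male groups overlapped. With the 6 groups of each gene ordered by mean, HFD stood apart from the group next to it for Chgb, Sct, Gip and Sst, and female control for Chga, Sct and Cck. All other neighbors in these orders overlapped. The share of all genes with such gaps, or with all HFD libraries above all others, was not counted.

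**Figure D1:**
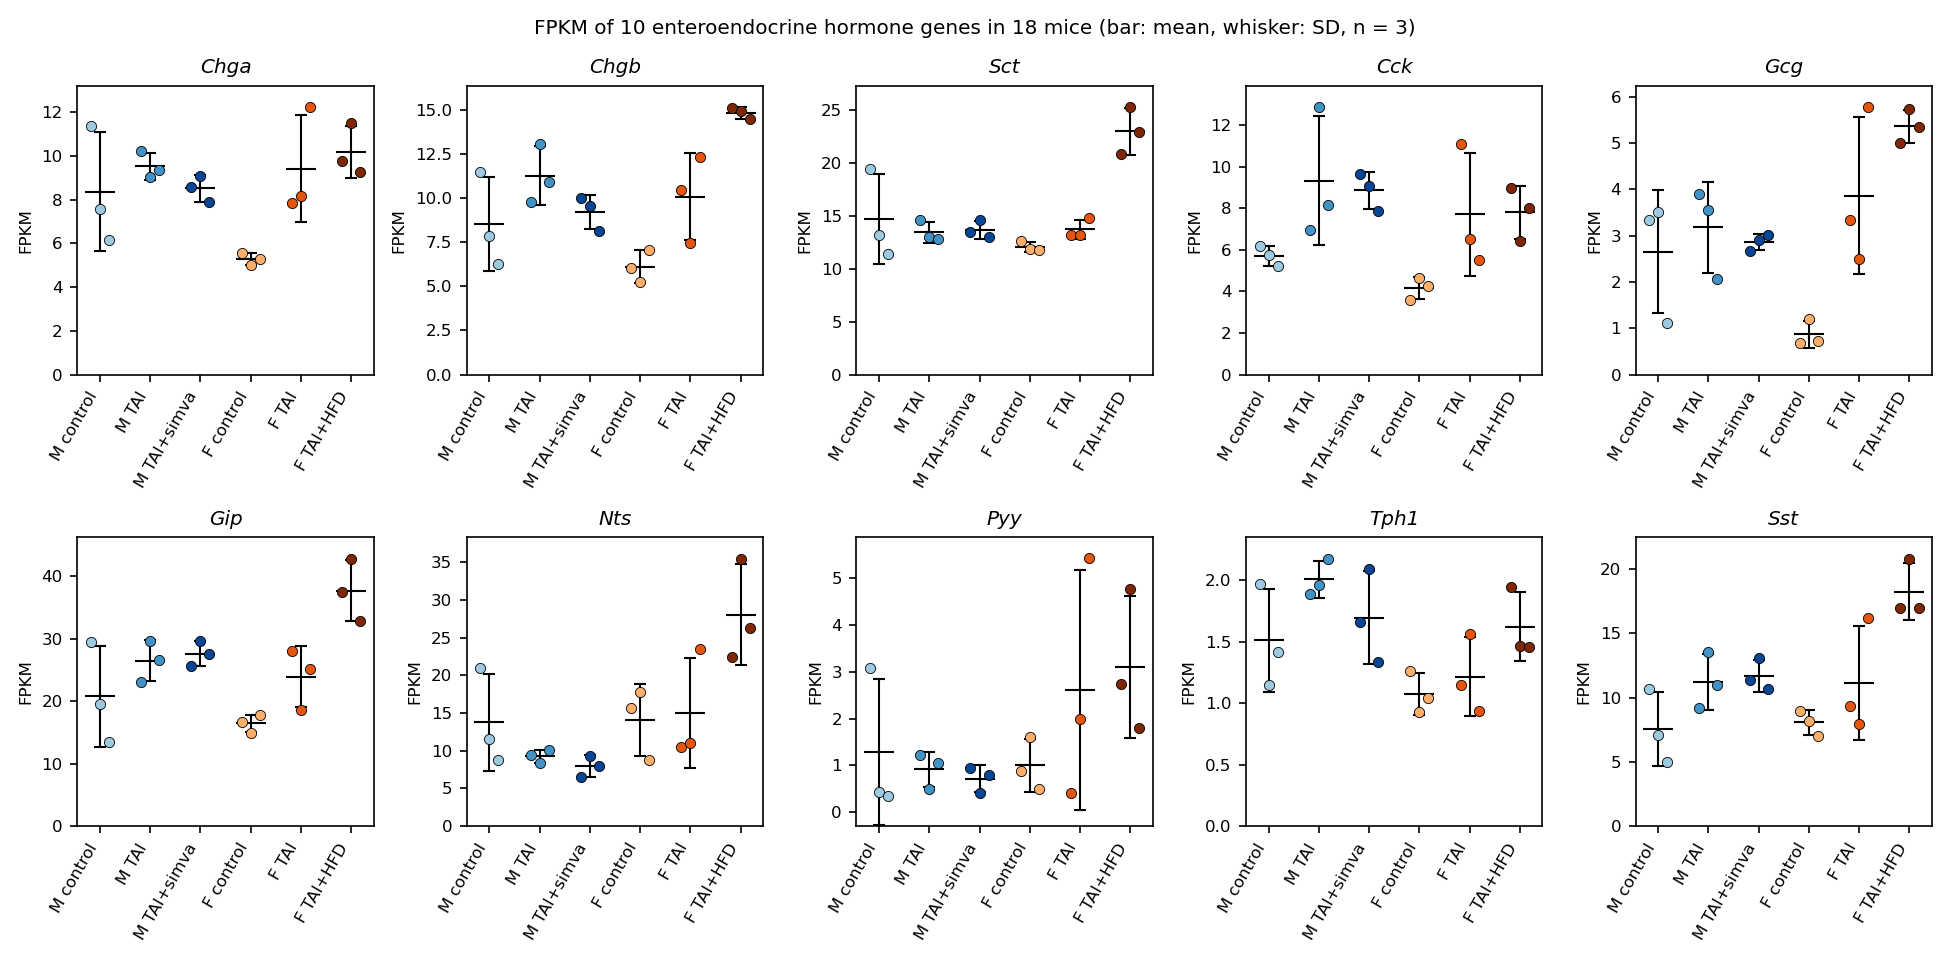
Expression in FPKM (linear axis) of the 10 genes in each of the 18 mice by group, where points are mice and bars are group means with SD (n = 3). The female HFD libraries lie above all female controls for every gene, and male control replicate 1 lies above the other male controls for 9 genes, Gcg being the exception.

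Irradiated female mice fed HFD carried more hormone transcripts than female controls. Of the 10 genes, 6 rose and none fell at an adjusted p under 0.05 (limma across all genes with Benjamini-Hochberg adjustment), where 2.91% of all genes tested were higher. Those that rose were the granule genes Chga and Chgb and the hormones Sct, Gcg, Gip and Sst. All 3 HFD libraries were above all 3 controls for 10 of 10 genes, against 29.2% of all genes tested. The median log2 fold change of the 10 genes was 0.99, against 0.10 for all genes. Fold changes are on the scale of log2(FPKM + 1), which understates those of low genes.

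Gcg encodes proglucagon, the source of GLP-1 and GLP-2 in L cells (chromosome 2, 62474530-62483650, minus strand, GRCm38). Its level was 0.680, 1.204 and 0.725 FPKM in the female controls, 3.33, 2.50 and 5.77 FPKM after TAI and 5.01, 5.73 and 5.34 FPKM with HFD. No control overlapped either irradiated group, and the irradiated groups overlapped each other. HFD against control gave a log2 fold change of 1.78 (SE 0.27, adjusted p = 0.00165 from limma), with mean FPKM 6.17 times those of controls. In male mice Gcg was 3.34, 3.51 and 1.12 FPKM in controls, 3.91, 3.56 and 2.06 FPKM after TAI and 2.67, 2.90 and 3.01 FPKM with simvastatin. All male groups overlapped. Of the 3 female controls, 2 lay below every male library.

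The 2 Gcg transcripts behaved differently among the female groups. The main transcript ENSMUST00000102733, with 75.9% of the gene's FPKM, averaged 0.865 ± 0.283 FPKM in controls (SD, n = 3), 3.30 ± 0.810 after TAI and 3.10 ± 1.03 with HFD. The transcript ENSMUST00000136686 was between 0.0 and 0.0126 FPKM in female controls, between 0.0 and 1.68 FPKM after TAI and between 1.63 and 3.29 FPKM with HFD. The main transcript thus overlapped between TAI and HFD, and the shorter transcript was at 1 FPKM or more in every HFD library. In males the shorter one ran from 0.0 up to 2.34 FPKM in controls, 1.31 after TAI and 1.11 with simvastatin. With the largest transcript alone, HFD against control was 1.12 on the log2 scale (adjusted p = 0.0427 from limma) instead of 1.78. The share of each transcript is an estimate from fragments that both can produce.

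Chromogranins are acidic proteins that pack hormones into granules. Chgb (chromosome 2, 132781278-132795079, plus strand) was at 6.02, 5.24 and 7.08 FPKM in female controls, 10.4, 7.43 and 12.3 FPKM after TAI and 15.1, 14.9 and 14.5 FPKM with HFD. The 3 HFD libraries were the highest of all 18. HFD against control gave 1.16 (SE 0.19, adjusted p = 0.00211 from limma). Male levels were 11.5, 7.82 and 6.28 FPKM in controls, 9.77, 13.1 and 10.9 FPKM after TAI and 9.99, 9.54 and 8.15 FPKM with simvastatin, and these groups overlapped.

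Chga (chromosome 12, 102554969-102565028, plus strand) was at 5.56, 4.999 and 5.29 FPKM in female controls, below every other library of the series. It was at 7.83, 8.19 and 12.2 FPKM after TAI and 9.76, 11.5 and 9.27 FPKM with HFD, and these groups overlapped. HFD against control gave 0.83 (SE 0.17, adjusted p = 0.0139 from limma). Without HFD replicate 2 it was 0.74 and missed the threshold (adjusted p = 0.0789). In male mice Chga was at 11.4, 7.59 and 6.14 FPKM in controls, 10.2, 9.02 and 9.34 FPKM after TAI and 8.57, 9.10 and 7.87 FPKM with simvastatin.

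Sct encodes secretin, which releases bicarbonate from the pancreas (chromosome 7, 141278330-141279133, minus strand). It was at 12.6, 11.8 and 11.7 FPKM in female controls, 13.2, 13.2 and 14.8 FPKM after TAI and 20.8, 25.2 and 22.9 FPKM with HFD. All HFD libraries lay above the other 15. HFD against control gave 0.87 (SE 0.14, adjusted p = 0.00188 from limma). Male levels were 19.5, 13.2 and 11.4 FPKM in controls, 14.6, 12.995 and 12.8 FPKM after TAI and 13.4, 14.6 and 12.98 FPKM with simvastatin. The table holds 3 transcripts of Sct of nearly equal length, which took 64.3%, 28.2% and 7.43% of its FPKM. The call held for their sum, and with the largest transcript alone it was lost (0.85, adjusted p = 0.117).

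Gip (chromosome 11, 96024545-96030831, plus strand) was at 16.6, 14.9 and 17.7 FPKM in female controls, 28.1, 18.5 and 25.2 FPKM after TAI and 37.5, 42.8 and 32.9 FPKM with HFD. Each HFD library lay above all other libraries of the series. HFD against control gave 1.15 (SE 0.21, adjusted p = 0.0053 from limma). Male levels were 29.4, 19.5 and 13.4 FPKM in controls, 23.1, 29.6 and 26.7 FPKM after TAI and 25.6, 29.6 and 27.6 FPKM with simvastatin.

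Sst encodes somatostatin, the inhibitory peptide of D cells (chromosome 16, 23889573-23890958, minus strand). It was at 8.97, 8.19 and 7.02 FPKM in female controls, 9.35, 7.90 and 16.2 FPKM after TAI and 17.0, 20.8 and 16.9 FPKM with HFD. The HFD libraries exceeded all others, and female TAI replicate 3 came closest to them. HFD against control gave 1.09 (SE 0.24, adjusted p = 0.0172 from limma). The call was lost without female control replicate 3 (adjusted p = 0.0767), HFD replicate 1 (1.13, adjusted p = 0.0545) or HFD replicate 2 (0.99, adjusted p = 0.0876). Male levels were 10.7, 7.11 and 4.96 FPKM in controls, 9.16, 13.5 and 11.01 FPKM after TAI and 11.4, 13.1 and 10.7 FPKM with simvastatin.

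The other 4 genes did not pass the test in HFD against control, although their libraries did not overlap. Cck encodes cholecystokinin of I cells, which contracts the gallbladder (chromosome 9, 121489824-121495694, minus strand). It was at 3.61, 4.66 and 4.26 FPKM in female controls and 8.96, 6.44 and 8.03 FPKM with HFD (0.76, SE 0.21, adjusted p = 0.0552 from limma). Nts, the gene of neurotensin (chromosome 10, 102481756-102490486, minus strand), was at 15.7, 17.8 and 8.73 FPKM in controls and 22.5, 35.5 and 26.2 FPKM with HFD (0.98, SE 0.32, adjusted p = 0.0913). Its female TAI level of 10.6, 11.1 and 23.4 FPKM overlapped both. Pyy encodes peptide YY, which slows gut transit (chromosome 11, 102106676-102107832, minus strand). It was at 0.885, 1.62 and 0.502 FPKM in controls, 0.414, 1.99 and 5.42 FPKM after TAI and 2.73, 4.75 and 1.79 FPKM with HFD (1.01, SE 0.48, adjusted p = 0.197). Its wide spread went with the fewest fragments of the 10 genes. Tph1, the rate-limiting enzyme of serotonin synthesis in enterochromaffin cells (chromosome 7, 46644641-46672537, minus strand), was at 1.26, 0.925 and 1.04 FPKM in controls and 1.94, 1.46 and 1.46 FPKM with HFD (0.33, SE 0.14, adjusted p = 0.164). Its longest transcript ENSMUST00000049298, with 38.3% of its FPKM, lay between 0.300 and 0.413 FPKM in controls and 0.727 and 0.910 FPKM with HFD. The other Tph1 transcripts overlapped between these groups, and transcripts were not tested singly here. Unadjusted, 9 of the 10 genes had p under 0.05, all but Pyy. The share of all genes at this unadjusted threshold was not counted, in this or any other comparison.

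**Figure D2:**
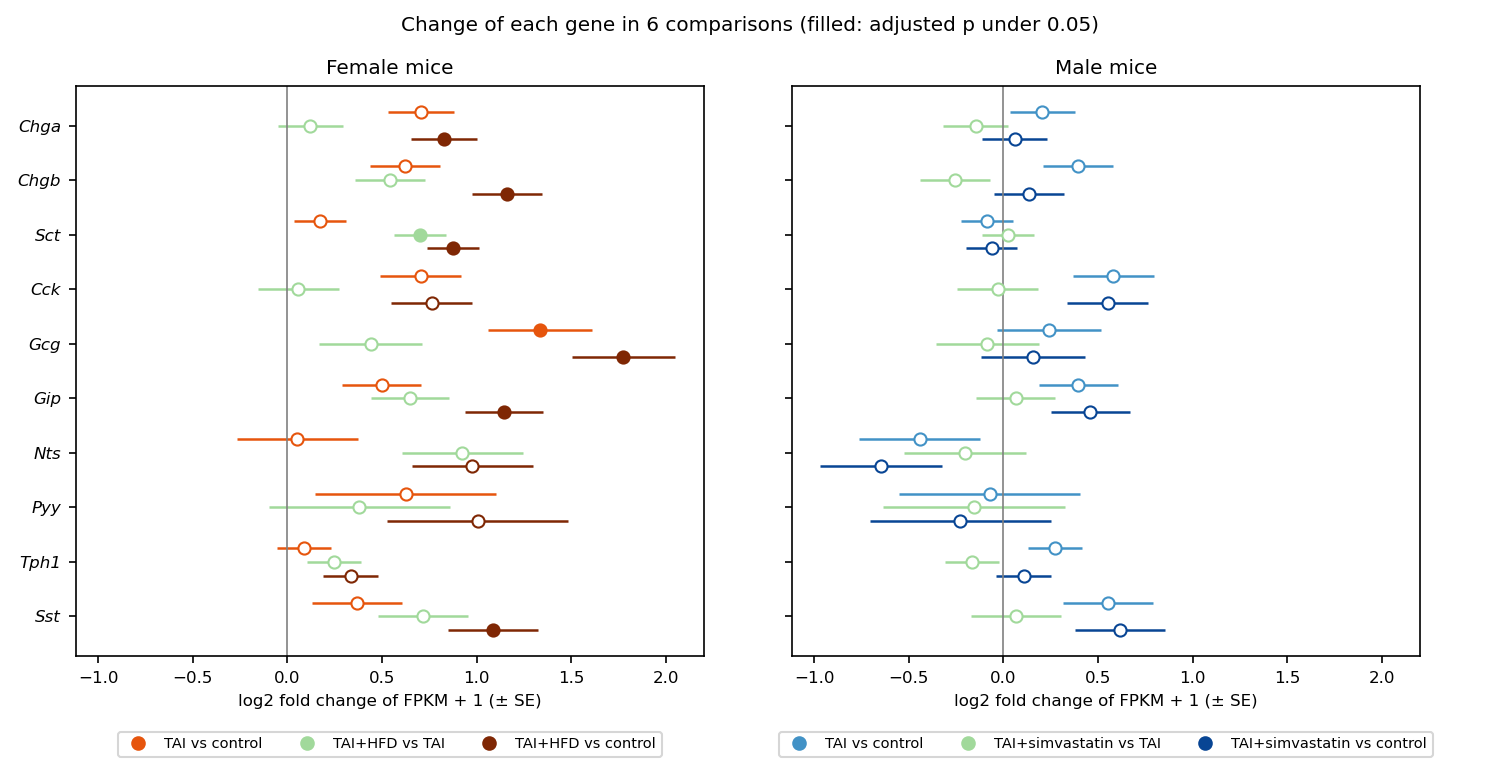
Log2 fold change of FPKM + 1 with its SE for each gene in 3 female comparisons (left) and 3 male comparisons (right), with filled points at an adjusted p under 0.05. Filled points occur in the female panel only: 6 for HFD against control, Sct for HFD against TAI and Gcg for TAI against control.

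HFD was next compared with TAI alone, which differ in diet as labelled. This comparison shares its TAI libraries with TAI against control and its HFD libraries with HFD against control. Of the 10 genes, Sct alone rose (0.70, SE 0.14, adjusted p = 0.00949 from limma), where 1.74% of all genes tested were higher. Without HFD replicate 2 the change of Sct was 0.64 and missed the threshold (adjusted p = 0.0597), and in a fit of the compared groups alone it also missed it (adjusted p = 0.0594). The 3 HFD libraries were above all 3 TAI libraries for Chgb, Sct, Gip and Sst, against 7.56% of all genes tested. All 10 log2 fold changes were above 0, with a median of 0.49 against -0.01 for all genes, and 5 had an unadjusted p under 0.05. The not called values were 0.54 for Chgb (adjusted p = 0.149), 0.65 for Gip (adjusted p = 0.119), 0.92 for Nts (adjusted p = 0.157) and 0.72 for Sst (adjusted p = 0.135). Chga and Cck stood at 0.12 and 0.06, and without female TAI replicate 3 Cck was at -0.12. Over 29 alternative settings the sign was opposite in 3 for Cck and in 1 each for Gcg and Pyy. Female TAI replicate 3 was the highest or second highest of its group for 8 of the 10 genes, Cck and Tph1 being the exceptions. Without it 3 genes passed the test, Sct (0.75, adjusted p = 0.0116 from limma), Nts (1.27, adjusted p = 0.029) and Sst (0.996, adjusted p = 0.0182). In that fit the median over all genes was 0.07, and the share of all genes called was not counted.

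TAI against control in female mice gave 1 called gene, Gcg, with a log2 fold change of 1.34 (SE 0.27, adjusted p = 0.044 from limma) and 0.416% of all genes higher. The call held in 8 of 29 alternatives. Without female TAI replicate 3 the change was 1.07 (adjusted p = 0.144) and without female control replicate 1 it was 1.26 (adjusted p = 0.199). It was also lost without libraries of groups outside the comparison, which share its spread, with adjusted p up to 0.0655. The 6 genes Chga, Chgb, Sct, Cck, Gcg and Gip had all TAI libraries above all controls, against 10.3% of all genes. All 10 changes were above 0, with a median of 0.56 against 0.12 for all genes. Chga was 0.71 (adjusted p = 0.0784), Cck 0.70 (adjusted p = 0.148), Chgb 0.62 (adjusted p = 0.145) and Gip 0.50 (adjusted p = 0.255). Sct, Nts and Tph1 were 0.17, 0.05 and 0.09, and the sign was opposite in 4 of 29 alternatives for Nts and 2 of 28 for Tph1. Without female TAI replicate 3 the change of Nts was -0.30, that of Pyy 0.08 in place of 0.63 and that of Sst 0.09 in place of 0.37, and none of the 10 genes was called.

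In male mice TAI called none of the 10 genes, where 2.1% of all genes changed in either direction. Of the 10 changes, 7 were above 0, with a median of 0.26 against 0.05 for all genes. By limma, 2 genes had an unadjusted p under 0.05, Cck (0.58, adjusted p = 0.235) and Sst (0.55, adjusted p = 0.351). The levels of Cck were 6.18, 5.76 and 5.23 FPKM in controls, 6.98, 12.9 and 8.16 FPKM after TAI and 9.64, 9.08 and 7.88 FPKM with simvastatin. It was the 1 gene of the 10 whose male TAI libraries all lay above the controls, against 10.3% of all genes. Nts went the other way in value (-0.44, adjusted p = 0.656), with 21.05, 11.6 and 8.72 FPKM in controls and 9.37, 8.35 and 10.05 FPKM after TAI. Male Pyy was at 3.08, 0.432 and 0.353 FPKM in controls and 1.21, 0.501 and 1.05 FPKM after TAI, so 1 control was above all TAI males and the other controls were below all of them. Tph1 averaged 1.51 ± 0.418 FPKM in male controls and 2.01 ± 0.149 FPKM after TAI (SD, n = 3), and was not called (adjusted p = 0.501).

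Simvastatin after TAI did not move any of the 10 genes past the threshold against TAI alone, where 0.697% of all genes changed. None had an unadjusted p under 0.05 by limma. The libraries overlapped for all 10 genes, where 25.4% of all genes had every simvastatin library above or every one below all TAI libraries, and 5.82% had them above. Changes ran from -0.26 for Chgb to 0.07 for Sst, with a median of -0.12 against -0.09 for all genes. Their SE ran up to 0.48 for Pyy, so that changes of that size were not detectable here. Simvastatin against male controls also called none, where 5.37% of all genes changed, and 3 genes had an unadjusted p under 0.05. These were Cck (0.55, adjusted p = 0.17), Sst (0.62, adjusted p = 0.17) and Gip (0.46, adjusted p = 0.254). Cck alone had all simvastatin libraries above all controls, against 8.85% of all genes. Without male control replicate 1, 2 genes passed, and the share of all genes called in that fit was not counted.

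Over both sexes together, TAI called Cck (0.64, SE 0.15, adjusted p = 0.0432 from limma), with 1.22% of all genes higher. The call held in 8 of 29 alternatives. It was lost with quantile normalization (0.51, adjusted p = 0.133) and without female control replicate 1 (0.60, adjusted p = 0.126) or male TAI replicate 2 (0.53, adjusted p = 0.0903). Gcg (0.79, adjusted p = 0.0538), Chgb (0.51, adjusted p = 0.0675) and Chga (0.46, adjusted p = 0.079) just missed the threshold.

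The TAI change was then compared between the sexes. No gene of the 10 differed, where 1.33% of all genes did, and by limma 1 had an unadjusted p under 0.05. This was Gcg, with a change larger by 1.09 in females (SE 0.39, adjusted p = 0.246). Among unirradiated mice, none of the 10 genes differed between female and male controls at the threshold, where 5.13% of all genes did. Gcg was lower in value in females (-0.90, SE 0.27, adjusted p = 0.0693), as was Chga (-0.54, SE 0.17, adjusted p = 0.0885). All female controls lay below all male controls for Chga and Cck, and the other 8 genes overlapped. The share of all genes with such a separation was not counted. Without male control replicate 3, the lowest of its group for 9 of the 10 genes, 2 genes passed. The share of all genes called in that fit was not counted either.

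The male controls were the group whose libraries differed most in the same direction across genes. The mean of the standardized log2 values of the 10 genes was 0.67 in replicate 1, -0.55 in replicate 2 and -1.16 in replicate 3. The female controls ranged from -1.18 to -0.96, the female TAI mice from -0.30 to 0.60 and the HFD mice from 0.92 to 1.36. The male TAI and simvastatin mice ranged from 0.10 to 0.37 and from -0.22 to 0.20.

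Most of the 10 genes correlated with each other across libraries. The median Pearson r over 45 pairs was 0.60 over the 18 libraries and 0.54 after the group means were removed. The highest was that of Chgb and Gip (0.92, and 0.85 with group means removed). Cck had r of 0.65 with Gip and 0.63 with Chgb but -0.26 with Nts and -0.17 with Pyy. Its median r with the other 9 genes was 0.49 over the 18 libraries, above those of Nts (0.44) and Tph1 (0.29), and -0.02 once group means were removed, below that of Tph1 (0.13). The libraries share their normalization, so these values are a description without a test.

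**Figure D3:**
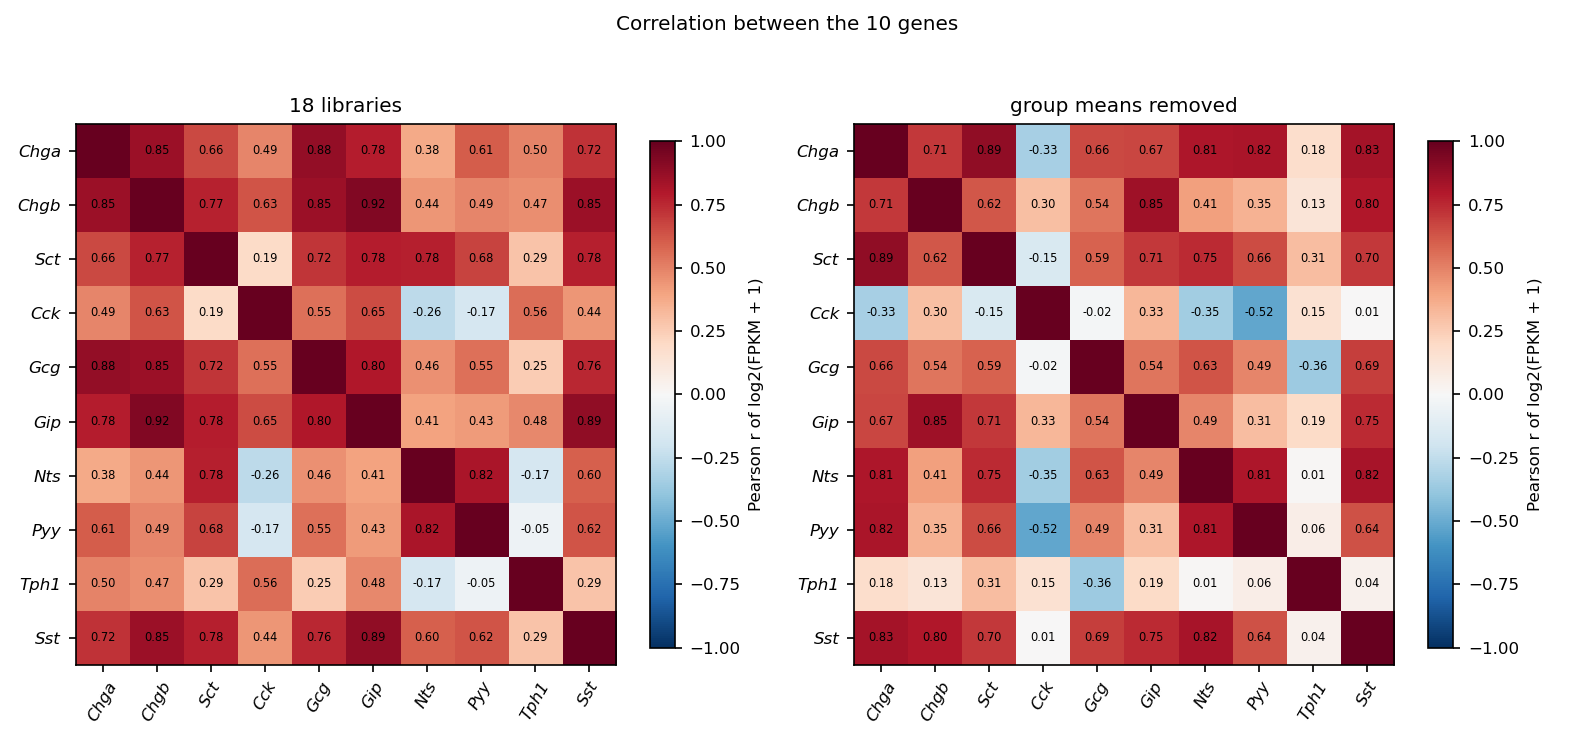
Pearson r of log2(FPKM + 1) between each pair of the 10 genes over 18 libraries (left) and after removal of group means (right), with colors from -1 to 1. Most pairs are red, with a median of 0.60 on the left and 0.54 on the right, and Cck is in 5 of the 6 negative pairs on the right.

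Outside the 10, the genes most like their mean pattern over the 18 libraries were Scarb2 (r = 0.86), Reg4 (0.85), Dbi (0.85), Lgr5 (0.84), 0610010F05Rik (0.84), Glp2r (0.82), Gm14288 (0.82), Pcsk6 (0.82), Klf11 (0.82) and Pla2g4a (0.81). Reg4 is a marker of enterochromaffin cells and Lgr5 of crypt stem cells. With group means removed the order was led by Serpinb6b (0.94), Itga8 (0.93), Entpd1 (0.93), Cxcl14 (0.93) and Ccr9 (0.92), followed by Igsf10, Glp2r, Cdh5, Adamdec1 and Sesn3, with r from 0.92 to 0.90. Glp2r, the receptor of GLP-2, was in both lists.

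Other genes of the enteroendocrine program were described by list. Of 8 further gut hormones 2 were expressed enough to be tested. Ghrl encodes ghrelin, and was at 2.99 ± 0.384 FPKM in female controls, 3.84 ± 0.828 after TAI and 5.42 ± 0.455 with HFD (SD, n = 3). It rose in HFD against control (0.69, SE 0.15, adjusted p = 0.016 from limma). It also rose in simvastatin against male control (0.98, SE 0.15, adjusted p = 0.00106), from 2.95 ± 0.616 to 6.75 ± 0.583 FPKM, where none of the 10 genes was called. Tac1, the other one, was not called in any comparison.

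Of 10 granule proteins and processing enzymes outside the 10 genes, 6 were tested. None rose, and Cpe, the carboxypeptidase that trims prohormones, fell in HFD against female control (-0.68, SE 0.15, adjusted p = 0.0195), from 18.1 ± 2.80 to 10.9 ± 0.856 FPKM. Its list had a median change of -0.14, against 0.99 for the 10 genes in the same comparison. Cpe is also expressed in neurons. Of 22 transcription factors only 4 were tested and none was called. Their median change in HFD against female control was 0.21, against 0.10 for all genes. Sox4 was at 0.74 in HFD against control (adjusted p = 0.118), from 1.89 ± 0.547 to 3.78 ± 0.552 FPKM. Means of the others tested went from 1.84 to 2.68 FPKM for Foxa1, 2.14 to 2.08 for Rfx3 and 4.42 to 4.56 for Atoh1. Neurod1 was below the filter, at 0.424 ± 0.110 FPKM in female controls and 0.918 ± 0.0718 FPKM with HFD.

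Around Tph1, 8 of 9 genes of serotonin synthesis and clearance were tested. Slc18a1, which loads serotonin into granules, rose in male TAI (0.47, adjusted p = 0.0271), in simvastatin against male control (0.64, adjusted p = 0.0015) and in HFD against female control (0.38, adjusted p = 0.0466). Maoa, which degrades serotonin, rose in HFD against TAI (0.60, adjusted p = 0.00601), and Ddc, the decarboxylase after Tph1, fell in simvastatin against male control (-0.62, adjusted p = 0.0258). Of 18 hormone receptors only Glp2r was tested (0.77 in HFD against female control, adjusted p = 0.0578). Of 15 nutrient receptors and transporters 2 were tested, and the glucose carrier Slc5a1 rose in simvastatin against male control (0.82, adjusted p = 0.00356).

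All 6 peptidases that cut these hormones were tested. Dpp4, which inactivates GLP-1 and GIP, fell in female TAI (-0.40, adjusted p = 0.044) and in HFD against female control (-0.55, SE 0.08, adjusted p = 0.00126 from limma), from a mean of 308 to 211 FPKM. Anpep, aminopeptidase N, fell in HFD against control (-0.64, adjusted p = 0.0058) and against TAI (-0.48, adjusted p = 0.0357). Enpep rose in male TAI (0.49, adjusted p = 0.00674) and in simvastatin against control (0.42, adjusted p = 0.0089), and its TAI change differed between the sexes (-0.76 in females relative to males, adjusted p = 0.00461). Mme rose in simvastatin against male control (0.66, adjusted p = 0.0117). These are brush border enzymes of enterocytes and are not particular to hormone cells.

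Markers of other cells were set beside the hormone genes in the female groups. The 7 epithelial genes summed to 4279 to 4634 FPKM in controls and 4148 to 4560 FPKM with HFD, and none of the 7 was called. The 6 smooth muscle genes summed to 264 to 334 FPKM in controls, 203 to 405 FPKM after TAI and 188 to 218 FPKM with HFD. None of the 6 was called in HFD against control, and 5 had an unadjusted p under 0.05 with a median change of -0.48. Of 11 enteric neuron genes 7 were tested and none was called, and their sums of 13.5 to 18.3 FPKM in controls and 12.5 to 15.2 FPKM with HFD overlapped. The 6 Paneth cell genes in the table summed to 92.7 to 195 FPKM in controls, 181 to 3605 FPKM after TAI and 675 to 1686 FPKM with HFD. Lyz1, Defa24 and Defa17 rose in HFD against control (3.55, 2.78 and 3.37, adjusted p from 0.0209 to 0.0362). Goblet cell genes summed to 3787 to 4987 FPKM in controls and 4316 to 4956 FPKM with HFD, with none of 7 called. The part of these cells in the hormone gene levels was not tested.

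Hormone genes differ along the gut, so markers of position were also read. The 7 proximal genes summed to 2356 to 2880 FPKM in female controls, 1756 to 2509 FPKM after TAI and 4105 to 4579 FPKM with HFD. Fabp1, a fatty acid binding protein of enterocytes, was the 1 proximal gene called in HFD against control (0.90, adjusted p = 0.00501), and the median of the 5 tested was 0.19. The 6 distal genes summed to 251 to 273 FPKM in controls, 220 to 323 FPKM after TAI and 233 to 284 FPKM with HFD, and none was called in HFD against control. In HFD against TAI, 1 of 3 distal genes tested was called lower, with a median change of -0.26. There 1 of 5 proximal genes tested was called higher, with a median of 0.03. Female TAI replicate 3 had the highest distal sum (323 FPKM), the lowest proximal sum (1756 FPKM) and the highest Paneth cell sum (3605 FPKM) of the female libraries. It was also the highest of its group for Chga, Chgb, Sct, Gcg, Nts, Pyy and Sst. The islet list summed to 65.6 to 207 FPKM, nearly all from Slc2a2, which enterocytes also express, and 2 or 3 of its 5 markers were at 0 in every group. The part of sampling position in the hormone gene levels was not tested.

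**Figure D4:**
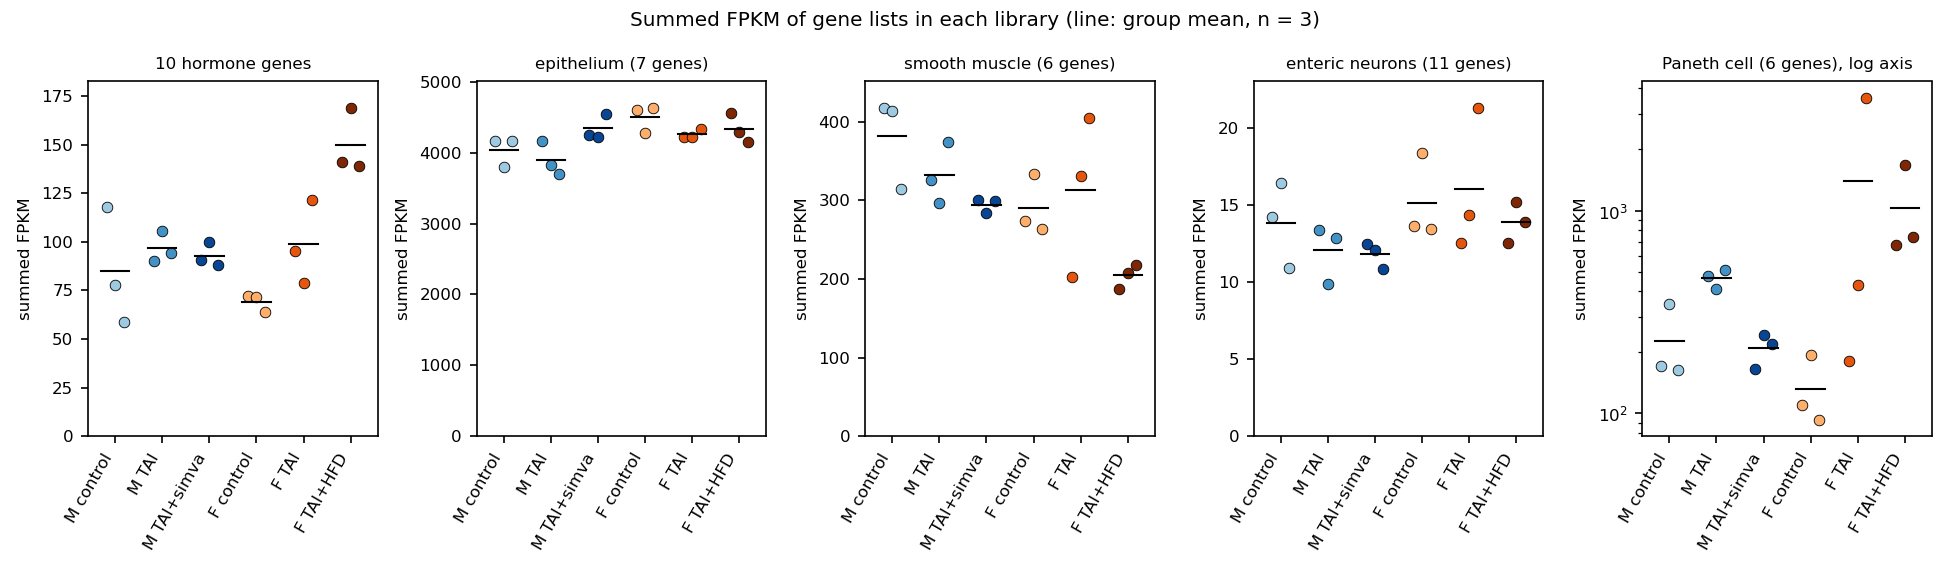
Summed FPKM per library of the 10 hormone genes and of marker lists of epithelium, smooth muscle, enteric neurons and Paneth cells (the last on a log axis), where points are libraries and lines are group means (n = 3). With HFD the hormone genes sum to 139 to 169 FPKM against 64.1 to 71.9 FPKM in female controls, while the epithelial sums of those groups overlap.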

How the data were processed

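The authors prepared libraries from total RNA with an NEBNext kit and deposited FPKM per transcript for 18 libraries, 1 per mouse, which keep no read totals. Tools credited in the submitters' notes, without roles, are Bowtie2 2.2.8, Cuffdiff 2.1.1, StringTie 1.3.1 and HISAT2. Their genome build was not given in the sources used here. Transcript FPKM were summed by symbol. The 11767 genes that reached 1 FPKM in 3 or more libraries were tested as log2(FPKM + 1) with limma 3.58.1 in R 4.3.3, 1 mean per group over all 18 libraries, an intensity trend, and Benjamini-Hochberg adjustment over all genes tested at 0.05. The limma fit was tested on simulated data. P-values of this fit rest on the spread between mice within groups, pooled for each gene over all 18 libraries. They do not measure the spread of the compared groups alone. The 10 genes and all lists were chosen with earlier results of these data known. All 10 genes were named, as were the 10 genes most like the mean pattern. List members were named in part, and some past the threshold in a comparison are not named here. Neurod1, named below the filter, was chosen after its values were seen. Fragments per library were estimated from steps in the low FPKM of genes with 1 transcript, with GENCODE M21 lengths. Gene positions come from GENCODE M21 (GRCm38) and promoters from RefSeq (GRCm38.p6). Other pseudocounts, filters, scalings, variance models, a replicate block, the largest transcript and each library left out in turn were tried. Shares of all genes called were counted for the fit described above only, not for these settings.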

Additional observations from a re-analysis of the deposited data

Results flagged for a closer look

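The TAI change of Sct had opposite signs in the sexes. All 3 male TAI libraries were below the mean of the male controls of 14.7 FPKM, and all 3 female TAI libraries were above the mean of the female controls of 12.1 FPKM. The change in females exceeded that in males by 0.257 on the log2 scale (SE 0.19, adjusted p = 0.731 from limma), which missed the threshold, and the high mean of the male controls rested on replicate 1 at 19.5 FPKM.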

How the results depend on the processing

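In HFD against female control, Chgb, Gcg and Gip were called in all 29 alternatives, Sct and Chga in 28 and Sst in 26. The number of the 10 genes called there was 4 to 8 with 1 library left out. In female TAI against control it fell from 1 to 0 with no filter, the compared groups alone, groups weighted by their own spread, no intensity trend, the largest transcript and the replicate block, and was 0 to 2 with 1 library left out. In HFD against TAI it was 0 with the compared groups alone and the largest transcript (0 to 3 with 1 library left out), and in simvastatin against male control 1 with the compared groups alone (0 to 2). Over both sexes it was 2 with a pseudocount of 0.1 or 0.5, 0 with no filter, the compared groups alone, weighted groups or the largest transcript, and 0 to 4 with 1 library left out. Between control sexes it was 1 with a pseudocount of 0.1 or weighted groups (0 to 2), and for the sex difference of the TAI change 0 to 1. Of the 29 genes of the enteroendocrine lists tested, the number called in male TAI was 2, with quantile normalization or median ratio scaling 1 and with the compared groups alone 0 (1 to 4 with 1 library left out). In female TAI it was 1, with median ratio scaling 2, and 0 with no filter, quantile normalization, the compared groups alone, weighted groups, no trend, the block or the largest transcript (0 to 1). In HFD against TAI it was 2, with median ratio scaling or the block 1, and with the compared groups alone or weighted groups 0 (1 to 3). In HFD against control it was 5, with median ratio scaling 8, with the compared groups alone 11 and with weighted groups 12 (2 to 12). Over both sexes it was 0, with median ratio scaling 2 and with the block 1 (0 to 1). For the sex difference it was 1, and 2 with quantile normalization or the largest transcript (1 to 2), and between control sexes 4, and 2 with the compared groups alone (3 to 4). Median ratio scaling moved the median of all genes in female TAI from 0.12 to -0.01. Replicate numbers did not pair the libraries, with correlations of same-numbered deviations from -0.459 to 0.322. With the replicate block Gcg in female TAI had an adjusted p of 0.0572 and no other called gene of the 10 lost its call. The cause of these differences was not tested. Depth limits Pyy most, at about 19.9 fragments per library.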
